A study of Mus musculus with 3 samples.

Results

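Long noncoding RNA (lncRNA) genes were examined at both of their ends, in windows of 1 kb on each side of an end, with windows left out that came within 1 kb of an end of a protein-coding gene. Of 25394 windows around the ends of 12697 lncRNA genes on chromosomes 1 to 19 and X, 22078 (86.9%) were kept and 3316 were left out. Distances to coding genes are measured throughout from the near edge of a window, which lies 1 kb from the lncRNA end itself. Both ends were kept for 9977 genes, 1 end for 2124 genes and no end for 596 genes, so 12101 genes were represented. After overlapping windows were joined, they made 20370 separate stretches covering 42.6 Mb, and 5890 windows (26.7%) lay inside the body of a coding gene.

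The peaks came from CUT&Tag, in which an antibody brings the Tn5 transposase to the DNA near a bound protein. Otocysts, the vesicles that become the inner ear, were taken from wild-type mouse embryos at stage E10.5. A pool of 34 otocysts was treated with Accutase and its cells were shared out among 3 samples, for anti-CHD7, anti-SOX2 and a control without primary antibody. There was 1 library per sample and the library without primary antibody was not analysed here, so the level of peaks without a directing antibody is not known at these ends.

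LncRNAs are transcripts without a long open reading frame, and many of their genes have promoters of their own, lie beside developmental regulators, or carry small RNAs in their introns. CHD7 is a chromatin remodeler that slides nucleosomes and whose loss in humans causes CHARGE syndrome, which includes malformed semicircular canals. SOX2 is an HMG-box transcription factor that binds a short DNA motif and is needed for the sensory patches of the inner ear.

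Sequences are shown for 5 promoters, as examples of lncRNA starts that differ in CpG content and in peaks. Each run is 300 bases, from 250 bases before the start of the gene to 50 bases after it, 5′ to 3′ along the gene, from RefSeq in build mm10. Capitals mark CpG dinucleotides. Mirc35hg (chr6:30174076-30174375, minus strand) and Chaserr (chr7:73558346-73558645, minus strand) touched a peak of both proteins, Rubie (chr14:46575802-46576101, minus strand) touched a CHD7 peak and no SOX2 peak, and Jpx (chrX:103493308-103493607, plus strand) touched neither.
Mirc35hg: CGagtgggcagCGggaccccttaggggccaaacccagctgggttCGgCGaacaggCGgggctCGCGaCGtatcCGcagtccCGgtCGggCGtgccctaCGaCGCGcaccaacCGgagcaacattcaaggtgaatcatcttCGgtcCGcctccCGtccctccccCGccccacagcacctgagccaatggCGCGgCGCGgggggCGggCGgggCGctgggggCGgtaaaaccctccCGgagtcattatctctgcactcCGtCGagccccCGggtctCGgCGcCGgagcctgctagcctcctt
Chaserr: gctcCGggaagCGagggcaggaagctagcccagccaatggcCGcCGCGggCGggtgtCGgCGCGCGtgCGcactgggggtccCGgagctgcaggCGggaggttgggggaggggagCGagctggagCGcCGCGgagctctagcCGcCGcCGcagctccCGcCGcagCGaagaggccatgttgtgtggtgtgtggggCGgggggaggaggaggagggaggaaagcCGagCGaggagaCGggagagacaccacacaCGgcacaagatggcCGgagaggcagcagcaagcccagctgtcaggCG
Rubie: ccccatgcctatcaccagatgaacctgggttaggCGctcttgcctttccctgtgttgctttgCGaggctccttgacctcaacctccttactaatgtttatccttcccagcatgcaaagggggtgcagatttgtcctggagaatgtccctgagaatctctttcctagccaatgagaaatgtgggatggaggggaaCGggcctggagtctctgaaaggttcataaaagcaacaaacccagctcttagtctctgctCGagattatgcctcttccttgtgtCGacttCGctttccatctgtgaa
Jpx: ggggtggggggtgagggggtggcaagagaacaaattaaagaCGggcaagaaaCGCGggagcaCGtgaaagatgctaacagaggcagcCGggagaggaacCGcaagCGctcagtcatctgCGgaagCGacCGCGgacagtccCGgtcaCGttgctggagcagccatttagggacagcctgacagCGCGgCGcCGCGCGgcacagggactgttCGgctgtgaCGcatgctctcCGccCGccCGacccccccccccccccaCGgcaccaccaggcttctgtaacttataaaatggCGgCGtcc
The number of CpG dinucleotides was 35 in Mirc35hg, 30 in Chaserr, 6 in Rubie and 27 in Jpx. The CpG ratio, observed over expected from the C and G content of the same 300 bases, was 0.946 in Mirc35hg, 0.826 in Chaserr, 0.321 in Rubie and 0.863 in Jpx. CpG content thus did not by itself tell which of these 4 promoters carried a peak.

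The promoter of Six3os1 (chr17:85618347-85618646, minus strand), which also touched a peak of both proteins, is shown with capitals for the core SOX motif. That motif was searched as ACAAT or its reverse complement ATTGT, and no other of the promoters printed here holds it.
Six3os1: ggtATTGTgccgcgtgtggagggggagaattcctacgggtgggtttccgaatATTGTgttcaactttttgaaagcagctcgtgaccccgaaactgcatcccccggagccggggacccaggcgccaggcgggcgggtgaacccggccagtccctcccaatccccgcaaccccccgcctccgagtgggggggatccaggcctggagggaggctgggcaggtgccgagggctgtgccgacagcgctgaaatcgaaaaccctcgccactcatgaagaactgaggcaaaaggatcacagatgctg
Six3os1 held 2 copies, both in the part upstream of the start. Both copies lay outside the peaks, whose borders on that side were 85618450 for SOX2 and 85618550 for CHD7. Its CpG ratio was 0.675.

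MicroRNAs are shown for the 4 host genes that had a CHD7 peak and a SOX2 peak at a kept end, with the seed (bases 2 to 8) in capitals.
miR-96-5p (Mirc35hg): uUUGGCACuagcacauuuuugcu
miR-182-5p (Mirc35hg): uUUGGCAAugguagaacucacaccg
miR-183-5p (Mirc35hg): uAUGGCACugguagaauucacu
miR-15a-5p (Dleu2): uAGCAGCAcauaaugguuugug
miR-16-5p (Dleu2): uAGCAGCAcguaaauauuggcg
miR-22-3p (Mir22hg): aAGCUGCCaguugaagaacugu
miR-9-5p (C130071C03Rik): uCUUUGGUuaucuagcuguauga
The seeds of miR-15a and miR-16 were identical, while miR-96, miR-182 and miR-183 had 3 different seeds. The last of these groups is abundant in sensory hair cells, and changes in miR-96 cause hearing loss in mice and humans.

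A CHD7 peak was present in 947 of the 22078 lncRNA end windows (4.29%, exact 95% interval 4.03 to 4.56%), against 7219 of 43262 coding gene ends (16.7%). A SOX2 peak was present in 4449 of the lncRNA end windows (20.2%, 19.6 to 20.7%), against 15917 coding gene ends (36.8%). Intervals of shares are Clopper-Pearson intervals and cover counting error only, since windows can share a peak and PCR reads are not independent molecules. With 1 library per antibody there is no replicate check and no p-value, and all comparisons describe these libraries.

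The level away from gene ends was taken from 1176413 consecutive stretches of 2001 bases, as long as a window, that lay over 1 kb from coding gene ends and touched no lncRNA end window, of which 462847 lay inside coding gene bodies. Of all these, 3.06% held a CHD7 peak and 13.6% a SOX2 peak, so lncRNA ends had 1.40 times the CHD7 share and 1.49 times the SOX2 share of the stretches. Windows of the same size 10, 20 and 50 kb outside the same ends, under the same rule on coding genes, held a CHD7 peak in 3.53%, 3.41% and 3.46% and a SOX2 peak in 17.2%, 17.2% and 17.3%. The neighbourhood of an lncRNA gene therefore already lay above the stretches. The pooled ends lay above their neighbourhood, with intervals that do not overlap in either comparison. Of the ends with known strand, 5′ starts lay above these windows outside, with CHD7 in 6.03% and SOX2 in 24.0%. Far ends did not. They held CHD7 in 2.89% (2.55 to 3.27%), under the windows outside but with an interval that reaches theirs, and SOX2 in 17.0%. The windows outside belong to both kinds of end.

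The windows that the coding rule left out were far richer. A CHD7 peak lay in 28.4% and a SOX2 peak in 52.7% of these 3316 windows, so that over all 25394 lncRNA ends the shares were 7.44% and 24.4%. At the border of the rule, windows whose nearest coding end lay 1000 to 1500 bases away (just kept) had CHD7 in 9.26% of 421 and SOX2 in 28%. Windows 500 to 1000 bases away (just left out) had CHD7 in 13.9% of 489 and SOX2 in 32.1%.

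**Figure D1:**
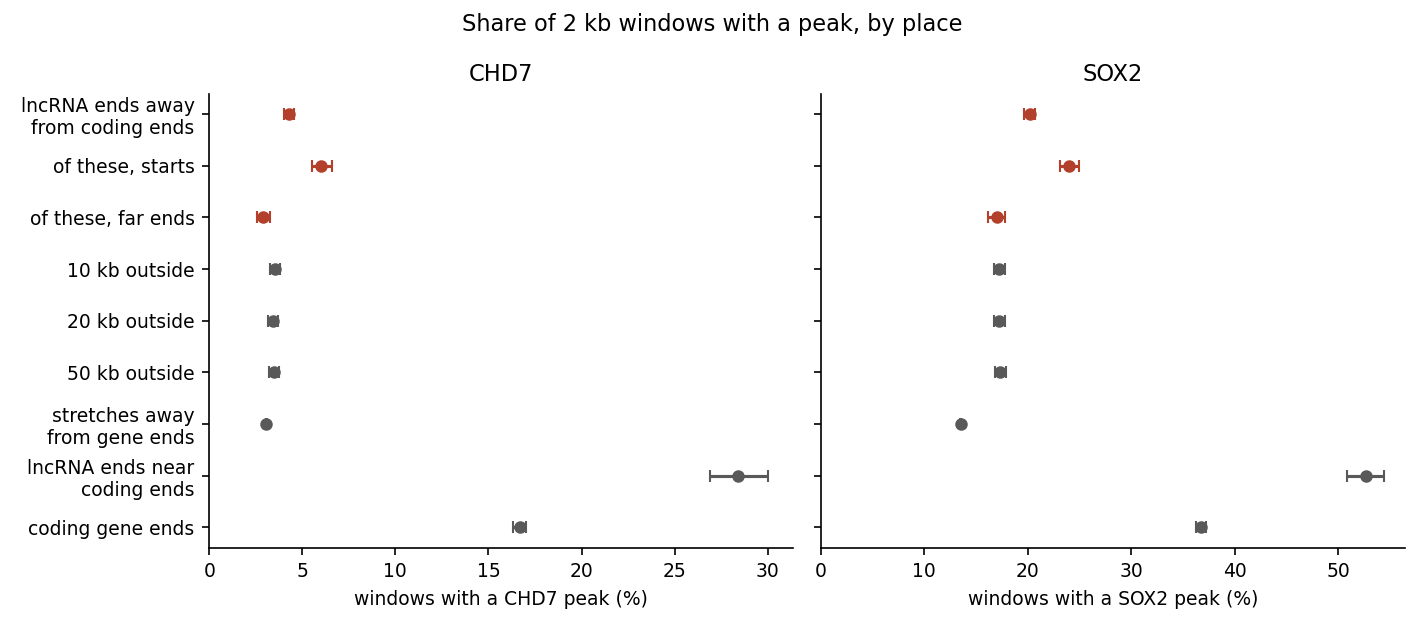
Share of windows of 2001 bases with a CHD7 peak (left) or a SOX2 peak (right), in percent, with exact 95% binomial intervals; red points are lncRNA ends away from coding ends, grey points the places they are set against. For CHD7 the kept lncRNA ends (4.29%) lie close to the stretches (3.06%) and far under coding gene ends (16.7%), and starts lie above far ends for both proteins.

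Where a CHD7 peak was present at an lncRNA end, a SOX2 peak was usually present too. It was found in 661 of the 947 windows with CHD7 (69.8%, 66.8 to 72.7%), against 20.2% of all lncRNA end windows. The same share was 61.5% in the stretches and 87.9% at coding gene ends. Seen from SOX2, 14.9% of the lncRNA end windows with a SOX2 peak also held CHD7, against 39.9% at coding gene ends. The SOX2 list is much longer, with 155548 peaks against 33035 for CHD7. Limited to as many of its strongest peaks as the CHD7 list holds, it marked 5.83% of lncRNA end windows and 47.3% of those with CHD7.

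The peaks themselves were few and mostly lone. The windows took up 888 CHD7 peaks (2.69% of that list) and 4569 SOX2 peaks (2.94%). Exactly 1 CHD7 peak lay in 912 of the 947 windows with CHD7, and 1 SOX2 peak in 4006 of the 4449 with SOX2. Peak signal is the coverage summed over the bases of a peak, in the authors' units, which cannot be compared between the lists. Its median was 651 for CHD7 peaks at lncRNA ends, 729 at coding ends and 638 elsewhere, and 1060, 1320 and 997 for SOX2 peaks at these places. Windows with both proteins had a median summed CHD7 signal of 761, against 576 in windows with CHD7 only, and a median SOX2 signal of 2290, against 1060 in windows with SOX2 only.

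The 5′ start of an lncRNA gene and its far end differed. Strand was known for 16516 windows, through the RefSeq promoter table. Of 7867 start windows 6.03% held CHD7 (5.51 to 6.57%) and 24.0% held SOX2. Of 8649 far-end windows 2.89% held CHD7 (2.55 to 3.27%) and 17.0% held SOX2. Far ends thus had a CHD7 share near the 3.06% of the stretches, starts lay above it, and the 5562 windows without strand (4.01%) lay between. Coding genes had the same order at a higher level, with CHD7 in 29.6% of starts and 4.55% of far ends.

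Within the same gene the order held as well. Among 7454 lncRNA genes with strand and both ends kept, CHD7 was at the start only in 363, at the far end only in 148 and at both ends in 60, so starts led by 2.45 to 1. For SOX2 the counts were 1287 at the start only, 806 at the far end only and 468 at both, a ratio of 1.60. Most such genes, 6883 for CHD7 and 4893 for SOX2, had no peak of that protein at either end.

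The profile by distance showed a narrow summit at starts and a dip at far ends. At the start base itself 3.22% of genes lay inside a CHD7 peak, against 1.31% at 2000 bases upstream. At the far-end base 0.717% lay inside a CHD7 peak, and 0.578% at 250 bases within the gene, against 1.45% at 2000 bases downstream. SOX2 covered 9.20% of start bases, against 5.54% at 2000 bases upstream, and 3.70% of far-end bases, against 5.46% at 2000 bases downstream. The rule, measured from the window edge, keeps coding ends over 2000 bases from the lncRNA end itself. Positions over 1000 bases outside an end can therefore come within 1 kb of a coding end.

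**Figure D2:**
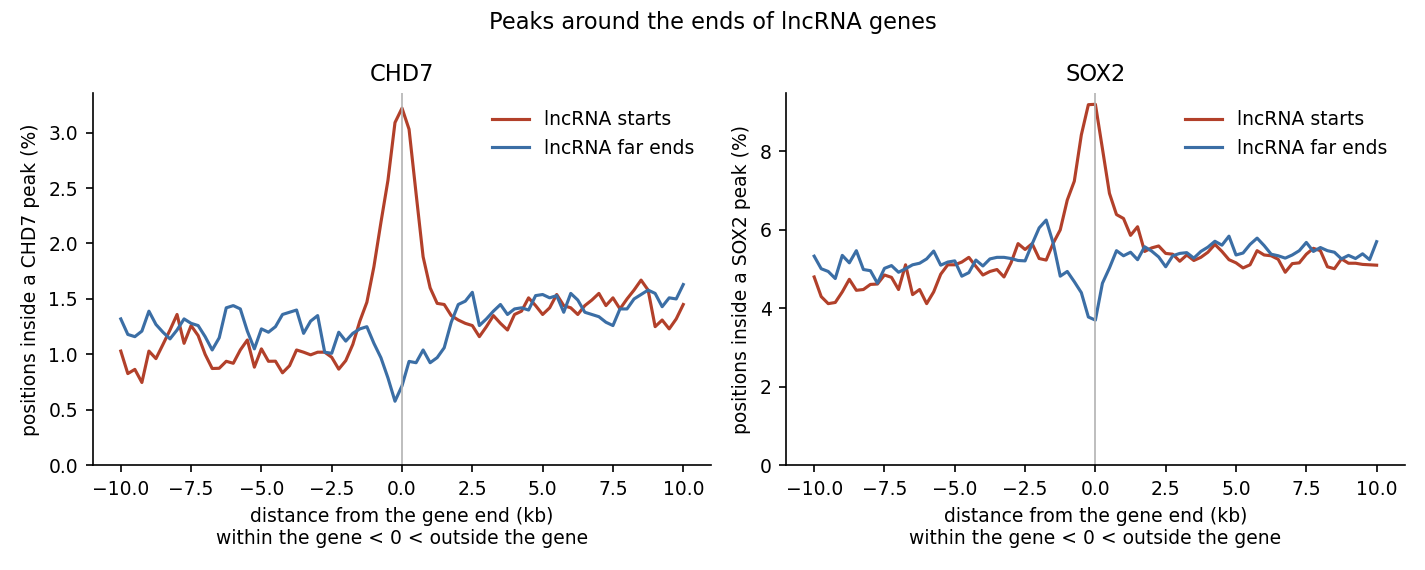
Percent of lncRNA genes whose base at a given distance (kb, horizontal axis, negative within the gene and positive outside) lies inside a CHD7 peak (left) or a SOX2 peak (right), for starts (red) and far ends (blue) of kept windows. Starts show a summit at the end itself, 3.22% for CHD7 and 9.20% for SOX2, and far ends a dip, 0.717% and 3.70%.

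LncRNA promoters with peaks were richer in CpG than those without. RefSeq promoters starting at a kept window were found for 7613 lncRNA genes. Only 356 of them (4.68%) were CpG-rich, meaning a CpG ratio over 0.6 and a G+C content over 50%, against 45.4% of 21045 coding promoters. The lncRNA promoters were limited to those at the outer end of the gene, and these coding promoters were not. Among coding promoters at an outer end, 4124 were CpG-rich and 6292 were not. The median CpG ratio was 0.619 in the 195 lncRNA promoters that touched a peak of both proteins, 0.394 in the 97 with CHD7 only, 0.264 in the 689 with SOX2 only and 0.209 in the 6632 with neither. The CpG-rich share in these sets was 48.7%, 26.8%, 10.9% and 2.41%.

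Read the other way, 121 of the 356 CpG-rich lncRNA promoters touched a CHD7 peak (34.0%, 29.1 to 39.2%), against 171 of 7257 others (2.36%, 2.02 to 2.73%). For SOX2 the shares were 47.8% and 9.84%. At coding genes with a promoter at the outer end, CHD7 was at 49.0% of 4124 CpG-rich promoters and 8.46% of 6292 others, and SOX2 at 68.0% and 20.6%. In the lowest class, with a ratio under 0.2, lncRNA and coding promoters lay close together for CHD7 (1.42% and 1.04%) and SOX2 (7.73% and 8.64%). In the class from 0.4 to 0.6 they lay far apart, at 5.96% for lncRNA promoters and 23.2% for coding promoters with CHD7, and at 15.1% and 44.7% with SOX2. Even at 0.8 and over, 34.6% of lncRNA promoters touched a CHD7 peak, against 50.5% of coding promoters. The gap between the classes of genes was thus seen within classes of CpG ratio too.

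**Figure D3:**
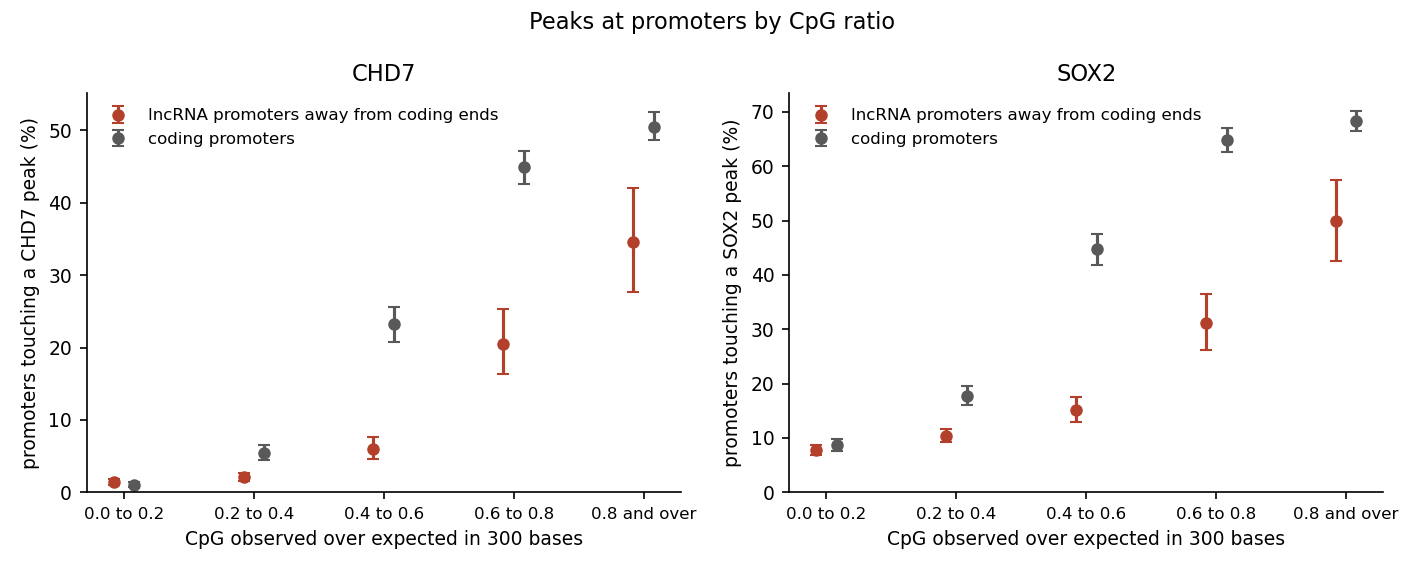
Share of promoters of 300 bases that touch a CHD7 peak (left) or a SOX2 peak (right), in percent with exact 95% intervals, by CpG ratio, for lncRNA promoters away from coding ends (red) and coding promoters (grey). Both rise with the CpG ratio, and lncRNA promoters lie under coding promoters from 0.2 upward: at 0.8 and over the CHD7 shares are 34.6% and 50.5%.

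The core SOX motif was less common in lncRNA promoters that touched a peak than in those that did not. It was present in 33.7% of the 689 lncRNA promoters that touched a SOX2 peak only, in 20.5% of the 195 that touched both and in 41.9% of the 6632 that touched neither, against 31.0% of all 32851 promoters of the table. The longer form ACAATGG or CCATTGT, which contains the core, was present in 6.68%, 2.05% and 5.49% of these sets and in 3.66% of all promoters. The median G+C content of the 3 lncRNA sets was 51.3%, 59.0% and 46.7%, and its part in these shares was not tested. Motifs elsewhere in a peak were not searched, as the promoter table gives 300 bases around the start.

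Distance from coding genes went with the peaks at lncRNA starts. Among start windows 1 to 5 kb from the nearest coding end 13.3% held CHD7. The share was 8.19% at 5 to 10 kb and 5.57% at 10 to 50 kb. Further out it was 3.97% at 50 to 200 kb and 4.14% beyond 200 kb. At far ends the shares over the same classes were 4.95%, 3.52%, 3.21%, 1.64% and 1.86%. The stretches changed far less, with 3.36%, 3.22%, 3.14%, 3.10% and 2.76%. From 50 kb outward far ends were under the stretches for CHD7, with intervals that do not overlap at 50 to 200 kb. All lncRNA end windows pooled were also no higher than the stretches there, with CHD7 in 2.78% (2.38 to 3.23%) of 6000 windows at 50 to 200 kb, against 3.10% of stretches, and in 2.68% (2.11 to 3.36%) of 2719 windows beyond 200 kb, against 2.76%. For SOX2 the pooled windows stayed above, at 17.6% and 13.8%. SOX2 at starts went through 32.4%, 28.9%, 25.6%, 19.9% and 17.5%, over a level in the stretches that itself declined through 18.3%, 16.7%, 14.8%, 13.1% and 9.86%. With all windows under 10 kb from a coding end left out, 3.51% of lncRNA ends held CHD7, only 1.16 times the stretches, while SOX2 kept a ratio of 1.48.

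**Figure D4:**
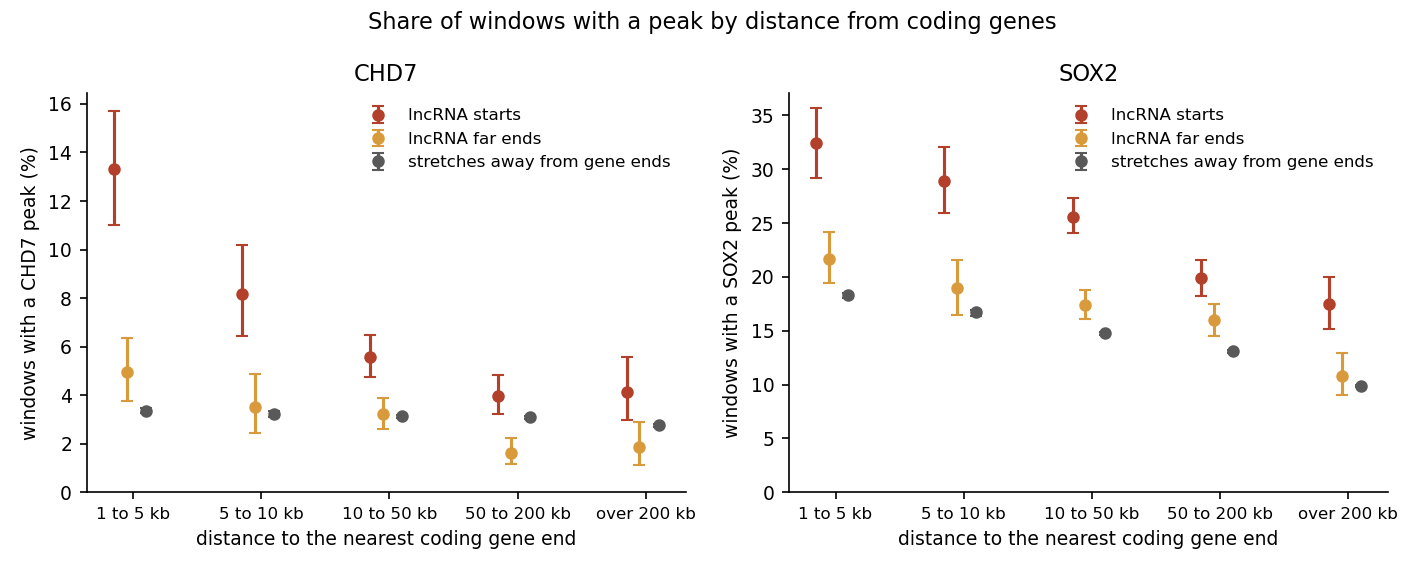
Share of windows with a CHD7 peak (left) or a SOX2 peak (right), in percent with exact 95% intervals, by distance to the nearest coding gene end, for lncRNA starts (red), lncRNA far ends (orange) and stretches away from gene ends (grey). CHD7 at starts declines with distance, 13.3% at 1 to 5 kb and 4.14% beyond 200 kb, and starts lie above far ends in every class.

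Well-annotated lncRNAs had more peaks than predicted ones. Genes with a curated RefSeq transcript had CHD7 at 9.26% of 1934 starts and SOX2 at 27.2%, against 4.97% and 22.9% of the 5933 starts of genes known by prediction alone. By name, CHD7 was at 10.8% of 251 starts of genes with a proper symbol, 10.4% of 1068 starts of Rik genes and 5.10% of 6413 starts of genes with a Gm number. Inside coding gene bodies 5.20% of lncRNA ends held CHD7, against 3.96% outside them, while the stretches had 2.87% and 3.18%. On the X chromosome 1.78% of 507 windows held CHD7 (0.815 to 3.34%) and 11.6% held SOX2, against 4.35% and 20.4% on the autosomes. For SOX2 the stretches were also lower on X, at 6.2%, against 14.1% on the autosomes, and for CHD7 they were 2.71% and 3.09%.

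Gene by gene, 876 of 12101 lncRNA genes (7.24%) had CHD7 at a kept end, 3839 (31.7%) had SOX2, and 648 (5.35%) had both, at the same or at different ends. These shares are the background for the lists below. MicroRNA host genes, whose transcripts are cut to release microRNAs, had CHD7 in 4 of 16 (7.27 to 52.4%). They had SOX2 in 12 of 16 (47.6 to 92.7%). Mir22hg (chr11, 5.15 kb long) had a CHD7 signal of 3684 and a SOX2 signal of 6363 at its start, the highest of these hosts for both. Mirc35hg, the host of the miR-183 group printed above, had 1744 and 2463 at its start and a SOX2 peak of 1818 alone at its far end. Dleu2, the host of miR-15a and miR-16, had 633 and 3724 at its start and no peak at its far end. C130071C03Rik, a host of miR-9, had both proteins at both ends, with CHD7 at 547 and SOX2 at 1056 at the start and 597 and 3812 at the far end. Mir205hg and Mir99ahg had SOX2 only, and Mir100hg and Mir155hg had neither.

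Among 13 lncRNAs with a kept end that were listed as widely expressed, 3 had CHD7 (5.04 to 53.8%) and 9 had SOX2 (38.6 to 90.9%). The expression of these genes was not examined, and the list name may not suit each of them. The CHD7 interval holds the background, and the SOX2 interval lies above it. Chaserr, which restrains expression of its neighbour Chd2, another remodeler of the CHD family, had 1794 for CHD7 and 2991 for SOX2 at its start. That window lay 15.6 kb from Chd2. Dleu2 belongs to this list as well. Pvt1, downstream of Myc, had 506 for CHD7 and 1056 for SOX2 at its end nearer to Myc, and the window at its other end held neither. Malat1, an abundant nuclear RNA, had SOX2 at both ends (3343 at the start, 2698 at the far end) and no CHD7. Norad and Morrbid had no peak at either end.

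Of 15 snoRNA host genes 2 had CHD7 (1.66 to 40.5%) and 9 had SOX2 (32.3 to 83.7%). The CHD7 interval holds the background, and the SOX2 interval lies just above it. Dancr had both, with a CHD7 peak of 1170 and a SOX2 peak of 1173 at its start. The gene is 1.28 kb long, so the same peaks also reached into the window of its far end, but not to that end itself. Snhg17 had a weak CHD7 peak alone (487) at its start, and Snhg5 a SOX2 peak alone (5131) at its start.

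Of 14 imprinted and X-inactivation lncRNAs 1 had CHD7 (7.14%, against 7.24% of the 12101 lncRNA genes with an end that was kept) and 6 had SOX2. Peg13, an imprinted lncRNA within Trappc9, was the gene with CHD7 (442, near the lowest signal of 433 in that list) and had SOX2 at 1583 in the same window. Airn and Kcnq1ot1, which silence neighbouring genes on the paternal chromosome, had SOX2 alone at their starts, with 2229 and 1378. H19 had neither, nor had Ftx and Jpx, which lie next to Xist. None of the 6 lncRNA genes of the Hox clusters with a kept end had a peak of either protein at it, a count of 0 that allows a share up to 45.9% at this number of genes. Hotair, Hottip and Halr1 are among them.

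LncRNAs beside developmental regulators had CHD7 in 4 of 21 (5.45 to 41.9%) and SOX2 in 9 of 21 (21.8 to 66.0%). Both intervals hold the background. With only windows outside coding gene bodies, CHD7 was in 1 of 19 genes of this list. With windows under 10 kb from a coding end left out, it was in 1 of 15. Sox6os, a 0.572 kb gene inside Sox6, had CHD7 at 2382 over both ends and SOX2 at 4985 at the start and 7565 at the far end, the highest values of this list. Its windows overlap, and the far-end SOX2 sum counts the peak of 4985 again, with another peak of 2580. Six3os1, at the locus of the eye and forebrain regulator Six3, had 715 for CHD7 and 1642 for SOX2 at its start. That start window lay inside a coding gene body, 3.79 kb from the nearest coding end, which belongs to Six3. Zeb2os had 469 and 4369 at its lower end. Pantr1, near Pou3f3, had 501 and 1173 at its lower end. Dlx6os1 had SOX2 alone (2610) at its start, in a window 2.66 kb from Dlx6, a regulator of the semicircular canals. Sox2ot, which spans the Sox2 gene itself, had no CHD7 at either end and a weak SOX2 peak (880) at its higher end. The window there lay 24.5 kb from Sox2. Within its 118 kb body Sox2ot held 7 CHD7 and 10 SOX2 peaks, so its outer ends show little of what the locus holds. Among 193 genes named after a coding gene, 14 (7.25%) had CHD7 and 54 (28%) had SOX2, close to the background. With only windows outside coding gene bodies, 1 of 90 (1.11%) had CHD7 and 20 of 90 (22.2%) had SOX2. The background share of genes was not computed for that setting. Of the 193 genes, 11 had both, among them Sox5os4 and Rab10os, with CHD7 at 1416 and 815 in their stronger windows.

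Rubie is an lncRNA upstream of Bmp4 that is expressed in the developing inner ear and altered in a mouse strain with malformed canals. It was chosen after its values were seen. Its start held a CHD7 peak of 697 (chr14:46575051-46576050) and no SOX2 peak. Its far-end window, 177 kb from Bmp4, held neither.

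Of 50 otic regulator genes, 37 had a kept lncRNA window within 50 kb, 120 windows of 80 lncRNA genes in all. CHD7 was in 21 of these windows (17.5%, 11.2 to 25.5%) and SOX2 in 40 (33.3%, 25 to 42.5%), against 5.01% and 22.1% of the 15040 windows within 50 kb of any coding gene. The list was compiled with results of these data known, and windows near the same regulator are not independent. With windows under 10 kb from a coding end left out, the CHD7 share was 11.3% and the SOX2 share 33.8%. The windows with CHD7 lay near 15 regulators, and those with both proteins near 8.

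The highest of these were 4930412O13Rik and 9230102O04Rik, a pair of lncRNA genes whose lower ends lie inside Gata3, which encodes a transcription factor of the otocyst and of hearing. Their windows shared a CHD7 peak of 2063 and held SOX2 at 6539 and 4457. Near Chd7 itself, Gm8273, with a window 42.4 kb away, had CHD7 at 938 and SOX2 at 3225. Gm46841, whose end lies within Chd7, had CHD7 at 656 and SOX2 at 5014. Gm38708, which is 56.4 kb long and has its start within Gata2, had 674 and 4252 at that start. Gm40546, with a window 3.0 kb from Zic1, had 537 and 4281. Gm3134, whose start lies within Sall1, had 624 and 1994 at that start. Gm36380, with a window 9.0 kb from Irx3, had 879 and 1144. Apart from Chd7, all of the regulators named here encode transcription factors.

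The strongest peaks that touched lncRNA end windows lay at a few places of another kind. A window at the start of Gm32506, inside Asic4 on chromosome 1, had a summed CHD7 signal of 80297, where sums count every touching peak whole. Nearly all of it belonged to a peak that ranked 6 in the CHD7 list (chr1:75460501-75462900) and reached just the outer edge of the window, which ends at 75460522. The other CHD7 peak that touched the window had 442, and the SOX2 peak 821. Gm40237, a 1.12 kb gene on chromosome 4, had CHD7 at 34467 and no SOX2 at either end. Gm52862 and its neighbour Gm52861 lay at neighbouring broad CHD7 peaks, 13300 and 11100 bases wide, on chromosome 6, and the start window of Gm52862 summed to 65436 for CHD7 and 45831 for SOX2. Of that CHD7 sum, 39194 belonged to the wider peak, most of which lay outside the window. AY036118, beside the 18S ribosomal RNA copy Rn18s-rs5 on chromosome 17, had a CHD7 peak of 50999 and a SOX2 peak of 341373 with identical borders (chr17:39842951-39848850), ranking 10 and 3 in their lists.

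Genes for transfer, ribosomal and other structural RNAs were found more often among the windows with both proteins. A gene of the tRNA, snRNA or rRNA class, or an 18S rRNA copy, lay in 30 of the 661 windows with both (4.54%), against 64 of all 22078 windows (0.29%), and in 4 of the 10 strongest. Of 39 windows with a tRNA gene 25 (64.1%, 47.2 to 78.8%) held CHD7 and 31 (79.5%) held SOX2. Gm10685, Gm26232 and Gm40099 lie in a tRNA gene cluster on chromosome 3, with CHD7 between 6472 and 8284 and SOX2 between 19793 and 24572 in the windows named. The far end of LOC115487798 holds Rnu3b1, a U3 RNA gene, with 11873 for CHD7 and 29821 for SOX2. These RNA genes have near-identical copies elsewhere, so the place of their reads is uncertain. Without the 64 windows, 4.16% of lncRNA ends held CHD7, 20% held SOX2, and 69.0% of the CHD7 windows held SOX2. Windows with a snoRNA gene held CHD7 in 7 of 43 and SOX2 in 21 of 43, and windows with a microRNA gene in 6 and 15 of 41.

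**Figure D5:**
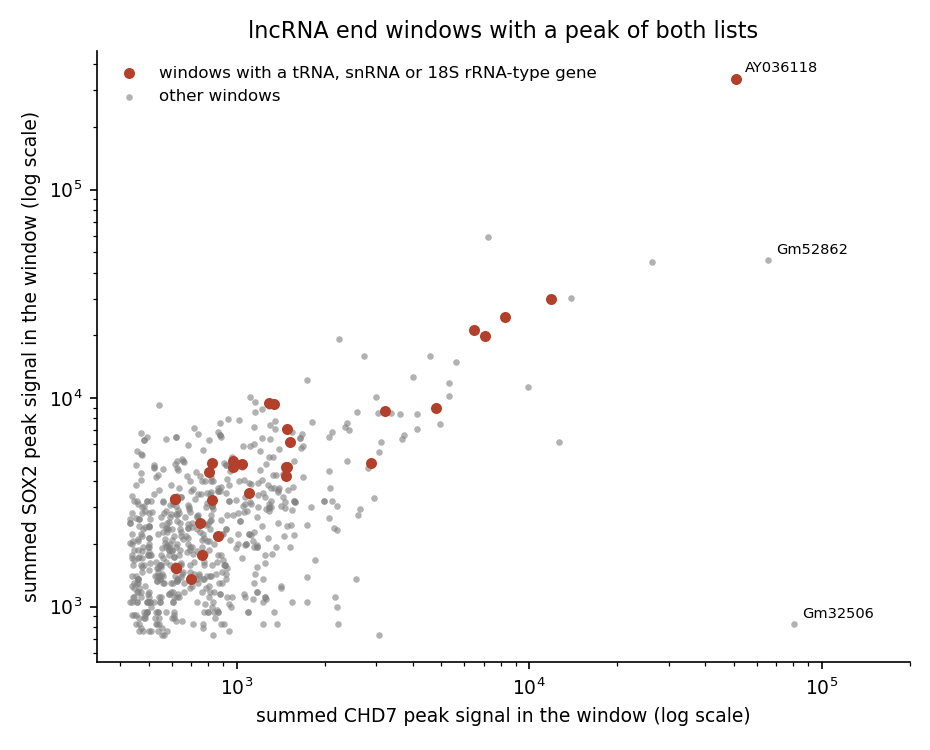
Summed CHD7 peak signal (horizontal, log scale) and summed SOX2 peak signal (vertical, log scale) in each of the 661 lncRNA end windows with peaks of both lists, in the authors' units. Red points are the 30 windows with a tRNA, snRNA or 18S rRNA-type gene, which include AY036118 at the top, while Gm32506 at the lower right has high CHD7 (80297, nearly all from a peak at the edge of its window) and low SOX2 signal (821).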

How the data were processed

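CUT&Tag peaks of 2 libraries were used, 1 for CHD7 and 1 for SOX2, in mm10. Bowtie2, deepTools and SEACR are named, per the submitters' processing notes, while for their settings, versions and control use nothing is stated in the sources used here. In the deposited lists the signal of a peak is its coverage summed over its bases, and its scaling is not given, so signal was used only within a list. The lists do not give the read depth, so precision is that of the number of windows. Where no replicate exists, no test was run.

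Gene ends came from a RefSeq gene table and strand and promoters from RefSeq promoters, both of assembly GRCm38.p6 (mm10). A promoter was matched for 9062 of the 12101 genes. A peak was counted when it shared at least 1 base with a window. Stretches avoided runs of over 500 kb with no peak or gene. Exons were not told apart.

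The members, gene lists and alternatives were chosen with earlier results of these data known. Named by rule were Sox2ot, from each list up to 6 genes with both proteins and 3 with CHD7 only, SOX2 only or neither, the 10 strongest windows for CHD7, SOX2 and both, and the 10 best windows within 50 kb of an otic regulator. The text names a subset of these, plus Rubie. List members with a kept end were counted, whatever their signal.

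Window counts were checked by direct counting and against planted peaks. The software was pandas 2.3.3 and numpy 2.4.6 under Python 3.11.15, with scipy 1.17.1 for intervals and matplotlib 3.10.9 for figures. Alternatives were stricter peak lists, narrower windows, the middle of a peak, a 10 kb rule, windows outside coding genes, joined windows and, added after seeing the data, windows without tRNA, snRNA and rRNA genes.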

Additional observations from a re-analysis of the deposited data

Results flagged for a closer look

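Peaks outside chromosomes 1 to 19 and X could not enter the lncRNA windows, and both lists hold some. The CHD7 list has 373 such peaks (1.13% of it), 217 on the Y chromosome and 156 on unplaced or random sequences. The SOX2 list has 1748 (1.12%), 1221 on Y and 527 on unplaced or random sequences. They were flagged because they lie outside the chromosomes used in the comparisons, and the library without primary antibody was not analysed here as their control.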

How the results depend on the processing

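Over all distances, lncRNA ends lay above the stretches for both proteins under each alternative, and starts above far ends under each but joined windows, where they were not compared. Beyond 50 kb from coding ends the CHD7 share of all lncRNA ends pooled was no higher than that of the stretches, as reported. Starts alone lay above the stretches there and far ends under them. Shares followed the peak list and the window. The CHD7 share of lncRNA ends, 4.29% as reported, was 2.21% with the stronger 50% of each list, 1.38% with the 10000 strongest peaks, 3.20% with 500 bases on each side, 3.21% by the middle of the peak, 3.51% at 10 kb from coding ends and 3.96% outside coding gene bodies. For SOX2 (20.2%) the same settings gave 12%, 1.97%, 14.0%, 15.8%, 18.8% and 19.3%, and 5.83% with a SOX2 list as long as the CHD7 list. SOX2 among CHD7 windows (69.8%) was 73.7% with the stronger 50%, 51.0% with 10000 peaks, 66.4% by the middle of the peak and 47.3% with the shorter SOX2 list. The CHD7 difference from the stretches, 1.23 percentage points, was 0.585, 0.374, 0.495 and 0.775 with the stronger 50%, 10000 peaks, 10 kb and outside coding bodies. The SOX2 difference, 6.60 points, was 4.88 with the stronger 50%, 1.13 with 10000 peaks, 2.91 with the shorter list, 5.05 with 500 bases and 5.36 by the middle of the peak. Fewer peaks or shorter windows lower a share by construction; for the 10 kb rule and coding bodies the cause was not tested. As ratios to the stretches, CHD7 ranged between 1.16 (10 kb) and 1.54, SOX2 between 1.48 and 2.33. Starts over far ends ranged between 1.95 and 2.77 for CHD7, 1.39 and 2.08 for SOX2. Joined windows and windows without tRNA, snRNA and rRNA genes stayed within the counting intervals. Of 150 values for starts, far ends, otic neighbours and lists, 98 stayed within them and 52 did not. Many of the 150 come from lists of few genes with wide intervals, so staying within these says little about how stable a share is. No analysis with paired samples was possible because each antibody has 1 library. The comparison within the same gene paired the ends of genes, not samples.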
